A study of Homo sapiens with 12 samples.

Results

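The HOX cluster transcripts were followed in a pair of established lines of Ewing sarcoma, the human lines TC32 and TC71, after exposure to mithramycin. Mithramycin is an antibiotic that occupies GC-rich stretches of DNA. They were taken as every probe set whose platform annotation gives a single symbol beginning with HOXA, HOXB, HOXC or HOXD, antisense transcripts included, together with HOTAIR and HOTAIRM1. This gave 60 of the 54613 probe sets that are not array controls, and these stood for 36 genes and transcripts. The HOXA cluster had 7 probe sets, HOXB 26, HOXC 11 with HOTAIR counted there, and HOXD 16. Protein-coding HOX genes took 44 of the sets (28 genes), and antisense transcripts took 16 (8 transcripts). No probe set carried the symbol HOTAIRM1, HOXA2 was the only coding gene of the HOXA cluster with a set of its own, and 4 sets that name a HOX gene beside other symbols were left out.

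There were 4 groups: TC32 and TC71, each with control solvent or with 100 nM mithramycin, and in all of them RNA was taken at 6 h. Each group had 3 biological replicates, hybridised to 1 array each, which limits the precision. Each line is a single established line, so a difference between TC32 and TC71 compares these 2 lines and not kinds of tumour. Only 1 dose and 1 time were measured.

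HOX genes encode homeodomain transcription factors that give cells their position along the body axis. They lie in 4 clusters, HOXA to HOXD, and a number from 1 to 13 names the paralogue group; low numbers act towards the head and high, posterior numbers towards the tail and the distal limb. Their proteins bind DNA together with cofactors of the PBX and MEIS families, Polycomb complexes keep the clusters silent and Trithorax complexes keep them active. Posterior HOXD genes are known to be highly expressed in Ewing sarcoma. Many non-coding antisense transcripts are made inside the clusters.

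All 11 measured markers of Ewing sarcoma had a mean log2 value of at least 6 in each group, with array means between 9.51 and 10.3, although BCL11B among them changed by -2.65 in TC32 and -2.59 in TC71 with mithramycin at its brightest set (-0.56 and -0.18 at the least changed set). No marker of epithelial, blood, endothelial or skeletal muscle cells reached 6 in any group, and 2 or 3 of 6 fibroblast markers did. Array medians lay between 4.38 and 4.47, and 28 of the 60 HOX probe sets had a mean of at least 6. The HOXA sets were dim throughout, with array values between 1.73 and 4.68. The difference between 3′ and 5′ probe sets of beta-actin, a measure of RNA integrity that grows as 5′ ends are lost, was 1.45 ± 0.48 (SD, n = 3) on the log2 scale in TC71 controls and 0.88 ± 0.10 (SD, n = 3) in TC71 with mithramycin. That gap gave an exact permutation p of 0.1 (two-sided), the smallest that 3 against 3 arrays allow, and TC71 control replicate 1 was highest at 2.0. In TC32 the values were 0.71 ± 0.04 and 0.60 ± 0.08 (SD, n = 3 each). The part of RNA integrity in the TC71 results was not tested beyond the fit with this difference as a covariate. The values of that fit stand beside the counts of all HOX sets. For TC71 with mithramycin and for the controls they also stand beside the HOXB, HOXC and HOXD counts.

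The first question was how mithramycin changed the HOX transcripts in each line. All differences are log2 differences of the deposited values with their standard errors, fitted with limma over all 54613 sets, and a set was called when its Benjamini-Hochberg adjusted p was under 0.05. In TC32, 20 of the 60 HOX sets were called higher and 9 lower, beside 19.4% and 16.9% of all sets. In TC71, 26 were called higher and 3 lower, beside 14.5% and 13.7% of all sets. The median HOX difference was 0.11 in TC32 and 0.19 in TC71, against 0.06 and 0.05 over all sets. Changes of at least 1 were made by 4 HOX sets in TC32 and 1 in TC71, where 4.11% and 2.81% of all sets did so. Several sets stand for 1 gene, so sets were not independent. With 1 set for each gene, the one with the highest mean, 12 of 36 genes passed upwards and 7 downwards in TC32, beside 25.6% and 19.4% of 19775 genes, and 18 were called higher and 3 lower in TC71, beside 19.4% and 16.1%. With each array centred on its hybridization controls the TC32 split turned to 5 higher and 11 lower, and the median of all sets was -0.07. The TC71 split became 29 and 0 with a median of 0.17. This centring shifts all sets of an array by the same amount. The HOX median less that of all sets was 0.04 in TC32 and 0.14 in TC71, with and without it. Why the hybridization controls differed between arrays was not tested. With the beta-actin measure as a covariate 16 HOX sets were called higher and 1 lower in TC71, and 20 and 9 in TC32.

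**Figure D1:**
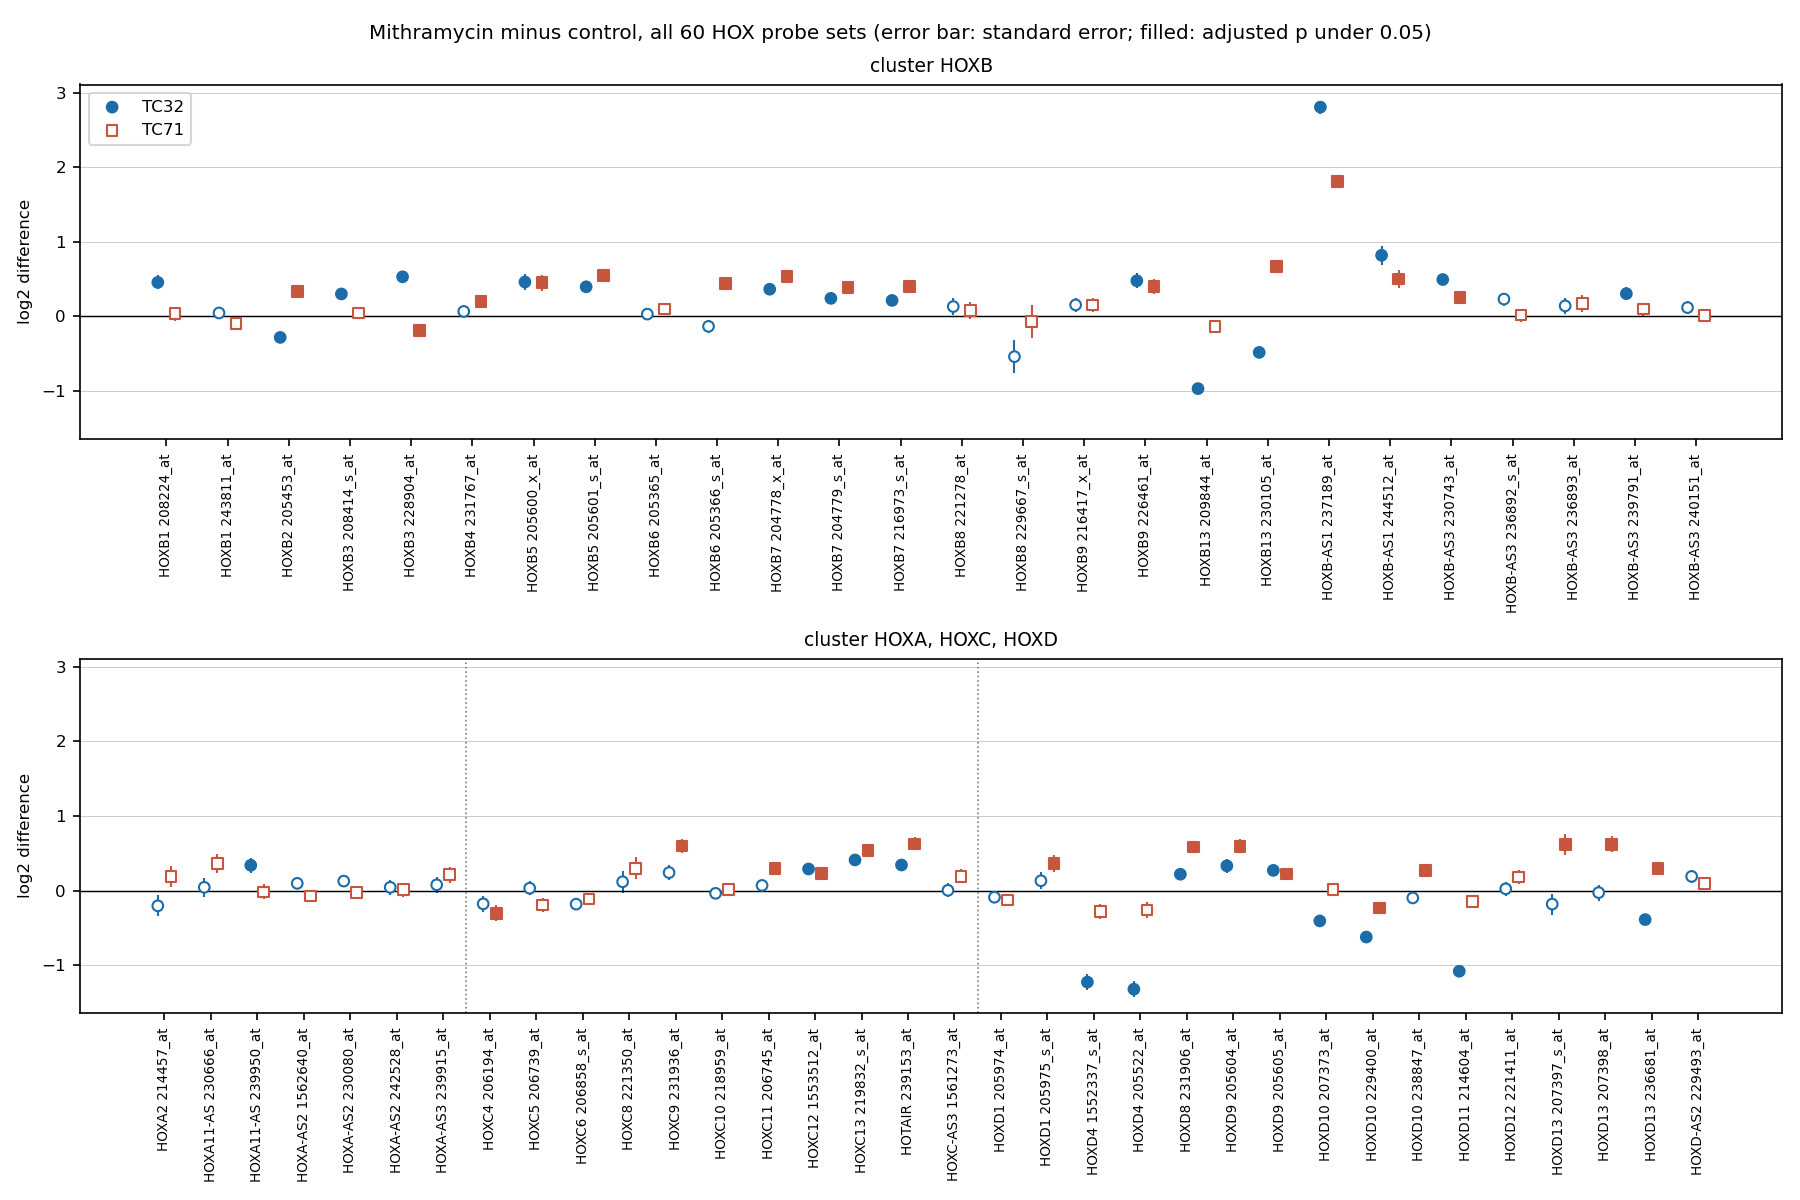
Log2 difference between mithramycin and control for each HOX probe set in TC32 and in TC71, arranged by cluster and paralogue number, with standard errors from the fit. A HOXB-AS1 set stands highest in both lines at 2.81 and 1.81, and the HOXD4 and HOXD11 sets stand lowest in TC32 between -1.32 and -1.08.

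The largest HOX response was in HOXB-AS1, a non-coding transcript that overlaps HOXB2 and HOXB3 in the RefSeq gene table. Probe set 237189_at read 4.19, 3.85 and 4.13 in the TC32 controls and 6.78, 6.87 and 6.94 with mithramycin. The TC71 controls read 4.52, 4.63 and 4.58, against 6.34, 6.36 and 6.44 with mithramycin. All treated arrays lay well above all control arrays in both lines. The rise was 2.81 ± 0.09 in TC32 (7.0-fold, adjusted p = 4.23e-10) and 1.81 ± 0.09 in TC71 (3.50-fold, adjusted p = 1.16e-08). The TC32 controls lay under the medians of their arrays, which leaves the size of the rise there rough. A second HOXB-AS1 set, 244512_at, was also called higher, by 0.82 ± 0.12 in TC32 (adjusted p = 0.000189) and 0.50 ± 0.12 in TC71 (adjusted p = 0.00843). Which strand the probes read was not checked here, so transcripts of the overlapping genes cannot be told apart from it.

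The other antisense transcripts moved less. HOTAIR, a long non-coding RNA of the HOXC cluster studied as a partner of Polycomb, read 6.22, 6.18 and 6.15 in the TC32 controls and 6.31, 6.66 and 6.61 with mithramycin, a rise of 0.34 (adjusted p = 0.0066). The TC71 controls read 6.20, 6.16 and 6.17, against 6.85, 6.74 and 6.82 with mithramycin, a rise of 0.63 (adjusted p = 9.41e-05). Treated and control arrays did not overlap in either line, but the TC32 call was lost with hybridization control centring. Of the 5 HOXB-AS3 sets, 230743_at was called higher in both lines (0.50 and 0.26). The TC71 call of that set was lost without TC71 mithramycin replicate 1 or 2 or TC71 control replicate 1 (values from 0.18 to 0.25). HOXD-AS2, HOXC-AS3, HOXA-AS2 and HOXA-AS3 had no set called in either line, and HOXA11-AS had 1 set called higher in TC32, by 0.34. The HOXA11-AS call was lost without TC32 mithramycin replicate 3 or TC32 control replicate 3 (values 0.25 and 0.31). In all, 6 of 16 antisense sets were called higher in TC32 and 4 in TC71, 0 were called lower in either line and 10 were called in neither. Over all sets 19.4% were called higher and 16.9% lower in TC32, and 14.5% and 13.7% in TC71.

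In the HOXD cluster, HOXD4 fell in TC32. HOXD4 is an anterior HOX gene that patterns the hindbrain and neck. Set 205522_at read 7.37, 7.06 and 7.24 in the TC32 controls and 6.11, 5.67 and 5.93 with mithramycin, a fall by 1.32 ± 0.10 (2.50-fold, adjusted p = 5.58e-07). Set 1552337_s_at read 7.01, 6.74 and 7.02 in the controls and 5.83, 5.60 and 5.67 with mithramycin, with a difference of -1.23 ± 0.10 (adjusted p = 8.54e-07). In TC71 the same sets read 6.94, 6.87 and 6.95 against 6.72, 6.63 and 6.62, and 6.10, 5.92 and 5.98 against 5.66, 5.60 and 5.90. Those TC71 differences, -0.26 ± 0.10 and -0.28 ± 0.10, were not called (adjusted p = 0.0874 and 0.0595), although treated and control arrays did not overlap.

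HOXD11, a posterior gene of the forearm and kidney, also fell in TC32. It read 8.36, 8.43 and 8.28 in the TC32 controls and 7.14, 7.39 and 7.29 with mithramycin, a fall by 1.08 ± 0.08 (2.12-fold, adjusted p = 2.22e-07). The TC71 controls read 7.82, 7.74 and 7.72, against 7.59, 7.57 and 7.71 with mithramycin, a difference of -0.14 ± 0.08 that was not called (adjusted p = 0.204). HOXD10, which lies beside it, had 3 sets. Set 229400_at read 10.64, 10.53 and 10.60 in the TC32 controls and 10.05, 9.93 and 9.94 with mithramycin, a fall by 0.62 ± 0.06 (adjusted p = 3.85e-06), and in TC71 it was called lower by 0.23 (adjusted p = 0.0113), a call lost with the beta-actin covariate and with hybridization control centring. The other HOXD10 sets did not all do the same: 207373_at was called lower in TC32 (-0.41) and differed by 0.02 in TC71, and 238847_at differed by -0.10 in TC32, not called, and was called higher in TC71 (0.27). The latter call was lost without TC71 mithramycin replicate 1 or 3 or TC71 control replicate 1 or 2 (values from 0.22 to 0.28).

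HOXD13, the most posterior HOXD gene and a patterning gene of the digits, rose in TC71. Set 236681_at read 9.36, 9.31 and 9.40 in the TC71 controls and 9.64, 9.68 and 9.64 with mithramycin, a rise of 0.30 (adjusted p = 0.00621) that lost its call with housekeeping centring. The other HOXD13 sets, 207397_s_at and 207398_at, were called higher there by 0.62 each (adjusted p = 0.00488 and 0.000723), the former not with the beta-actin covariate. In TC32 set 236681_at read 8.54, 8.62 and 8.52 in the controls and 8.04, 8.29 and 8.18 with mithramycin, a fall by 0.39 (adjusted p = 0.000782), while the other sets differed by -0.18 and -0.03 and were not called. HOXD8, a mid-cluster gene, was called higher in TC71 by 0.59 ± 0.07 (adjusted p = 4.05e-05). HOXD9 had 2 sets, and 205604_at was called higher in TC71 by 0.59 (adjusted p = 0.000343). In TC71, 8 of 16 HOXD sets were called higher and 1 lower; in TC32, 3 were called higher and 6 lower. Over all sets 14.5% and 13.7% were called higher and lower in TC71, and 19.4% and 16.9% in TC32. With hybridization control centring the HOXD counts were 9 and 0 in TC71 and 0 and 6 in TC32. In TC71 they were 5 and 1 with housekeeping centring and 4 and 0 with the beta-actin covariate.

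Promoter sequence is shown for some members that had one available: HOXB-AS1, which rose in both lines, HOXD4 and HOXD11, which fell in TC32, and HOXD13, which rose in TC71. HOXD13 did not have the largest rise in TC71, and no promoter sequence was available for HOXB13. Each is the stretch of 250 bases before the annotated start, 5′ to 3′ on the plus strand, from RefSeq for GRCh38.p14. Capitals mark the GC box GGGCGG, the core motif of Sp family factors and a kind of GC-rich site mithramycin can occupy, on either strand (CCGCCC where it lies on the other strand), and the TATA box TATAAA on either strand. The windows are chr17:48544101-48544350 for HOXB-AS1, chr2:176151300-176151549 for HOXD4, chr2:176107030-176107279 for HOXD11 and chr2:176092471-176092720 for HOXD13.
HOXB-AS1: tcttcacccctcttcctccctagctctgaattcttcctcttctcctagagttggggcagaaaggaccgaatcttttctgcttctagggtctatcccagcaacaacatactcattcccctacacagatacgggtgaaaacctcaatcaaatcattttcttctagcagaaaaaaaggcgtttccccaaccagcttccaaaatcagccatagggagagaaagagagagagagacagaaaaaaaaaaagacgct
HOXD4: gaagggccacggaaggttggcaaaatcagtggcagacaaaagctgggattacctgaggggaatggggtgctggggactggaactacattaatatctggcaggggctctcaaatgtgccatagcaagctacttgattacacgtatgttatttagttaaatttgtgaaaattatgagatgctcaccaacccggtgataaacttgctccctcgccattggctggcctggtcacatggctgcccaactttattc
HOXD11: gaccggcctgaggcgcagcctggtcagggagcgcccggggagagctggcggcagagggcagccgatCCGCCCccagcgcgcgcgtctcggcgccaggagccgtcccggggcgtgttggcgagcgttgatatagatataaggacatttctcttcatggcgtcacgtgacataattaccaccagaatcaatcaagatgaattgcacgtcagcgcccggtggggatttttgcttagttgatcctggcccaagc
HOXD13: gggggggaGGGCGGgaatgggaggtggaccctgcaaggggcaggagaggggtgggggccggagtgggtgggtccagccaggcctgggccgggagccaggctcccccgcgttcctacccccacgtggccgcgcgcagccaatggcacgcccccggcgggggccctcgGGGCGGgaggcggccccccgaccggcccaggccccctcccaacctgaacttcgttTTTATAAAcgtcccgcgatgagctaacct

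The windows of HOXB-AS1 and HOXD4 held 0 matches to either motif and had 44.4% and 47.6% G and C. HOXD11 held 1 GGGCGG match at 61.6% G and C. HOXD13 held 2 GGGCGG matches and 1 TATA stretch that matches on both strands, at 74.0% G and C. HOXD8, also called higher in TC71 and not shown, held 0 matches to either motif at 72.4% G and C. The table held 17 of the 36 HOX genes and transcripts, with HOXC4 and HOXC5 sharing 1 window. GGGCGG occurred in 4 of the 17 (23.5%) against 42.6% of 35116 promoters, and TATAAA in 1 of the 17 (5.88%) against 10.7%. Median G and C content was 53.2% in the HOX windows and 58.0% over all promoters. A window with 0 matches lacks these letters, and nothing is read from that about the factors.

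HOXB13, the posterior end of the HOXB cluster and a marker of prostate and tail-bud tissue, had 2 probe sets that differed in TC71. Set 209844_at read 8.44, 8.55 and 8.46 in the TC32 controls and 7.48, 7.51 and 7.56 with mithramycin, a fall by 0.97 ± 0.06 (adjusted p = 9.23e-08). In TC71 it read 7.34, 7.25 and 7.34 against 7.19, 7.11 and 7.21, a difference of -0.14 ± 0.06 that was not called (adjusted p = 0.128). Set 230105_at read 9.10, 9.23 and 9.16 in the TC32 controls and 8.75, 8.64 and 8.65 with mithramycin, a fall by 0.48 ± 0.07 (adjusted p = 0.000225). In TC71 it read 7.28, 7.32 and 7.51 against 8.01, 8.0 and 8.11, a rise of 0.67 ± 0.07 (adjusted p = 1.77e-05). Both sets therefore fell in TC32, and in TC71 only 230105_at was called, upwards.

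The anterior HOXB genes HOXB2 and HOXB3, both patterning genes of the hindbrain, moved in opposite senses in TC32. HOXB2 read 8.20, 8.32 and 8.42 in the TC32 controls and 8.0, 8.0 and 8.10 with mithramycin, a fall by 0.28 ± 0.07 (adjusted p = 0.00833). In TC71 it read 6.99, 7.01 and 7.0 against 7.34, 7.24 and 7.42, a rise of 0.33 ± 0.07 (adjusted p = 0.00365). HOXB3 did the reverse at set 228904_at. It read 7.85, 7.71 and 7.84 in the TC32 controls and 8.38, 8.33 and 8.29 with mithramycin, a rise of 0.53 ± 0.06 (adjusted p = 1.75e-05). In TC71 it read 6.74, 6.80 and 6.72 against 6.58, 6.58 and 6.55, a difference of -0.19 ± 0.06 (adjusted p = 0.0372). That last call was lost when any 1 of the 6 TC71 arrays was left out (values from -0.20 to -0.16) and with the beta-actin covariate. A second HOXB3 set, 208414_s_at, was called higher in TC32 (0.30) and differed by 0.05 in TC71.

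**Figure D2:**
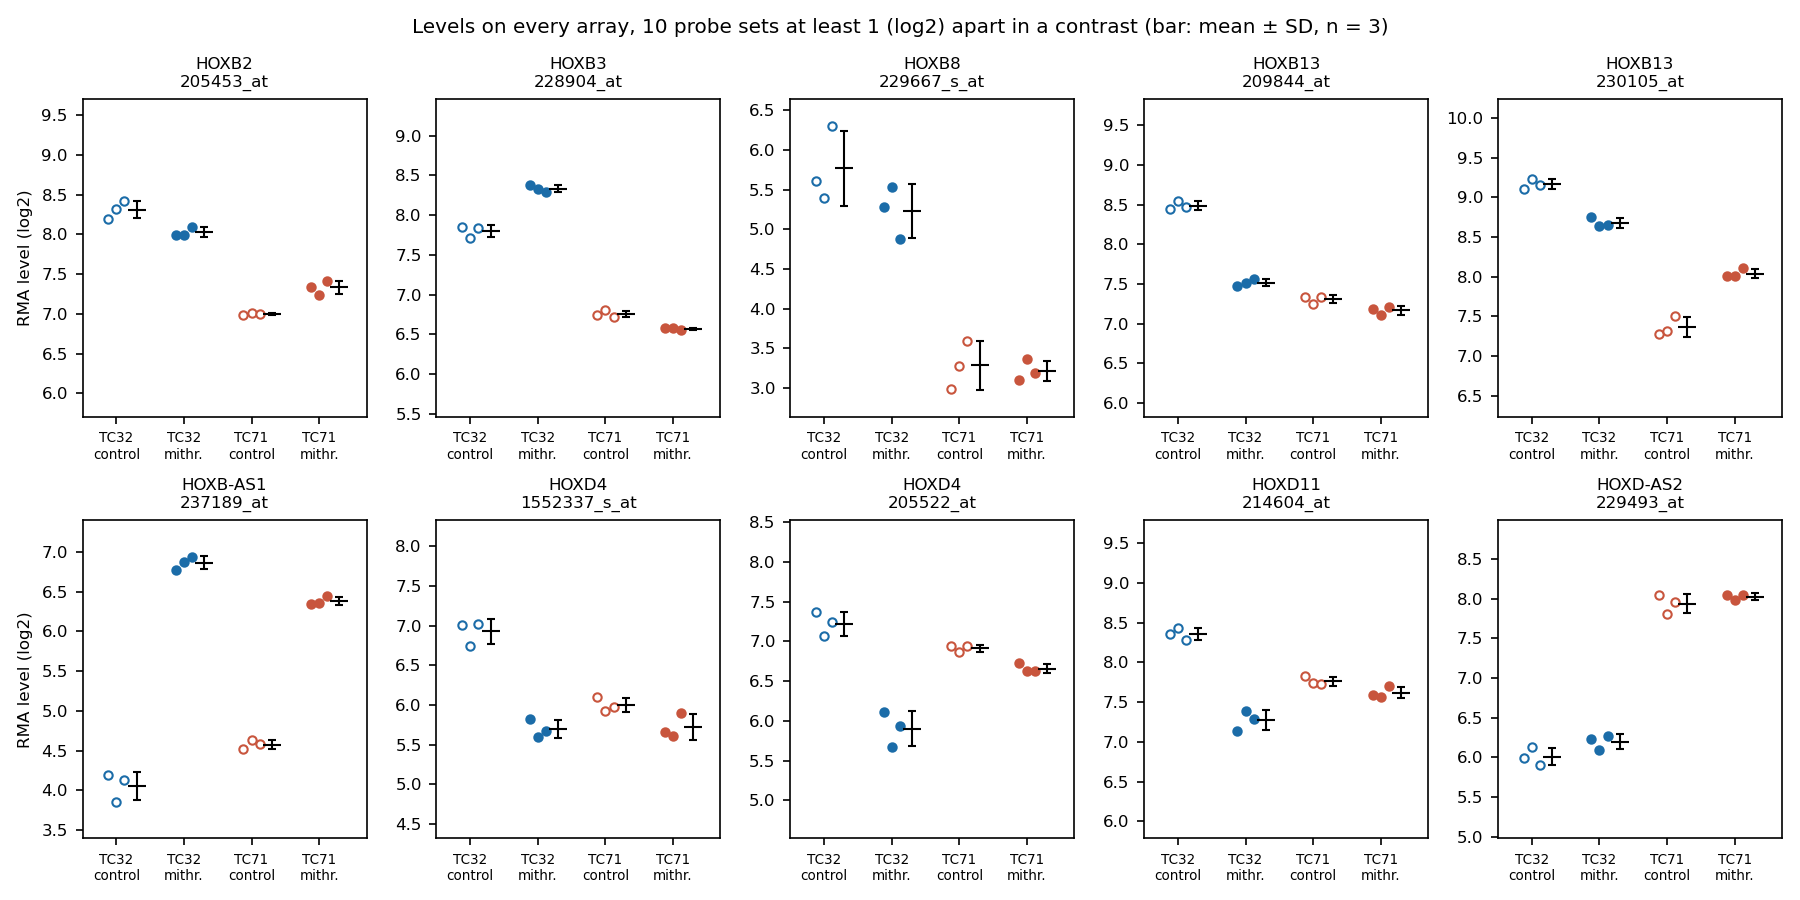
Log2 value on each of the 12 arrays for the 10 HOX probe sets that were called and at least 1 apart in a comparison, by group; points are arrays and bars give the mean ± SD of each group (n = 3). HOXB-AS1 stands higher with mithramycin in both lines, while HOXD4, HOXD11 and HOXB13 fell by 0.48 to 1.32 in TC32.

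In the middle of the HOXB cluster, HOXB5, HOXB7 and HOXB9 were called higher in both lines by smaller amounts. HOXB5, a gene of the lung and gut, read 6.32, 6.30 and 6.39 at set 205601_s_at in the TC32 controls and 6.75, 6.80 and 6.66 with mithramycin, a rise of 0.40 (adjusted p = 0.000882). In TC71 it read 5.85, 5.76 and 5.60 against 6.29, 6.29 and 6.29, a rise of 0.55 (adjusted p = 8.13e-05). The 3 HOXB7 sets were called higher by 0.22 to 0.37 in TC32 and by 0.39 to 0.53 in TC71, and HOXB9 at set 226461_at by 0.48 and 0.41. HOXB6, between them, was called higher in TC71 at set 205366_s_at (0.44, adjusted p = 0.00134) and differed by -0.13 in TC32. HOXB4 (0.07) and both HOXB8 sets (-0.54 and 0.13) were not called in TC32. The TC32 rises of HOXB5 and HOXB7 lost their call with hybridization control centring. The TC71 rises of HOXB9 and of HOXB5 at 205600_x_at lost it with the beta-actin covariate. The TC32 call of 1 HOXB7 set, 216973_s_at, was also lost with housekeeping centring and without TC32 mithramycin replicate 3 (value 0.20). In all, 13 of 26 HOXB sets were called higher in each line, with 3 called lower in TC32 and 1 in TC71. Over all sets 19.4% were called higher and 16.9% lower in TC32, and 14.5% and 13.7% in TC71. With hybridization control centring the TC32 counts were 5 and 4, and with the beta-actin covariate the TC71 counts were 9 and 0.

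Among the HOXC genes, HOXC13 was called higher in both lines and HOXC9 in TC71. HOXC13, a gene of hair and nails, rose by 0.41 in TC32 (adjusted p = 0.000525) and 0.54 in TC71 (adjusted p = 7.26e-05). HOXC9 rose by 0.60 in TC71 (adjusted p = 0.000392) and differed by 0.24 in TC32, which was not called (adjusted p = 0.0669). HOXC10, HOXC6 and HOXC5 differed by at most 0.19 in size in either line and were not called. In the HOXC cluster 3 of 11 sets were called higher and 0 lower in TC32, and 5 higher and 1 lower in TC71. The shares over all sets were 19.4% and 16.9% in TC32, and 14.5% and 13.7% in TC71. Hybridization control centring left 0 higher and 1 lower in TC32, and the beta-actin covariate left 3 higher and 1 lower in TC71. The 1 lower set in TC71 was HOXC4 (-0.30, adjusted p = 0.0459). The HOXC4 call was lost without any TC71 mithramycin array, TC71 control replicate 2 or 3, TC32 mithramycin replicate 1 or TC32 control replicate 1, with values from -0.33 to -0.24.

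By paralogue number, sets of groups 9 to 13 were called higher 12 times and lower 1 time of 19 in TC71, and 5 and 6 times in TC32. Sets of groups 4 to 8 were called higher 8 times and lower 1 time of 17 in TC71, and 6 and 2 times in TC32. Groups 1 to 3 gave 2 and 1 of 8 in TC71, and 3 and 1 in TC32. The shares over all sets were 14.5% higher and 13.7% lower in TC71, and 19.4% and 16.9% in TC32. The counts by paralogue group were not recomputed under the other centrings or with the beta-actin covariate. Joined over the lines, 15 sets were called higher in both (HOXB-AS1, HOXB5, HOXB7, HOXB9, HOXB-AS3, HOTAIR, HOXC12, HOXC13, HOXD8 and HOXD9), 1 lower in both, 3 lower in TC32 and higher in TC71 (HOXB2, HOXB13 at 230105_at and HOXD13 at 236681_at), and 1 higher in TC32 and lower in TC71 (HOXB3 at 228904_at, the weak call given above). The shares of all sets with these joint patterns were not counted, so nothing particular to the HOX sets is read from the joint counts. Of the 15, 4 stayed with hybridization control centring (both HOXB-AS1 sets, HOXB9 and HOXB-AS3), 10 with housekeeping centring and 10 with the beta-actin covariate, and 9 whichever array was left out. HOXC12 lost its TC71 call without any 1 of the TC71 arrays (0.21 to 0.24). HOXD8 lost its TC32 call without TC32 mithramycin replicate 1 or 2 or TC32 control replicate 1 or 3 (0.18 to 0.21). HOXD9 lost it at 205604_at in TC32 without TC32 mithramycin replicate 1 or TC32 control replicate 2 (both 0.25), and at 205605_at in TC71 without any TC71 mithramycin array or TC71 control replicate 1 or 2 (0.18 to 0.23).

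The second question was whether the effect of mithramycin differed between the lines, tested as the TC71 effect minus the TC32 effect. It was called higher in TC71 for 13 of 60 HOX sets and lower for 2, beside 4.38% and 2.48% of all sets, and 3 HOX sets differed by at least 1, beside 1.17% of all sets. At 1 set for each gene the counts were 8 and 2 of 36, beside 6.27% and 3.72% of genes. Of the 28 HOX sets with a mean of at least 6, 13 were called higher and 1 lower, beside 8.14% and 3.19% of the 15245 sets of that brightness. The HOXD cluster gave 9 of the calls, all higher in TC71, out of 16 sets; HOXB gave 4 higher and 2 lower of 26, and HOXA and HOXC gave 0 of 7 and 0 of 11. With the beta-actin covariate the total was 8 higher and 2 lower, of which HOXD gave 4, and without TC71 control replicate 1, the array with the highest beta-actin difference, it was 9 higher. 

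The difference of effects was 1.06 ± 0.15 for HOXD4 at 205522_at (adjusted p = 0.000718) and 0.95 ± 0.14 at 1552337_s_at (adjusted p = 0.00134). It was 0.94 ± 0.11 for HOXD11 (adjusted p = 0.000209). In these genes TC32 fell and the TC71 difference, though negative, was not called. HOXB13 gave 1.15 ± 0.11 at 230105_at (adjusted p = 3.51e-05) and 0.83 ± 0.09 at 209844_at (adjusted p = 0.000113). HOXB2 gave 0.61 ± 0.10 (adjusted p = 0.00262), HOXB6 at 205366_s_at 0.57 ± 0.12 (adjusted p = 0.00991) and HOXD13 at 236681_at 0.69 ± 0.10 (adjusted p = 0.000966). The effect was lower in TC71 for HOXB-AS1 at 237189_at, by -1.0 ± 0.12 (adjusted p = 0.000309), and for HOXB3 at 228904_at, by -0.72 ± 0.09 (adjusted p = 0.000273). All of these calls stayed under each alternative that tested the set and when any 1 array was left out. The TC32 controls of 237189_at lay under the medians of their arrays, which leaves the size of its difference rough. The sets HOXB-AS1 244512_at, HOXB3 208414_s_at and HOXB6 205365_at were not called for the difference of effects.

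**Figure D3:**
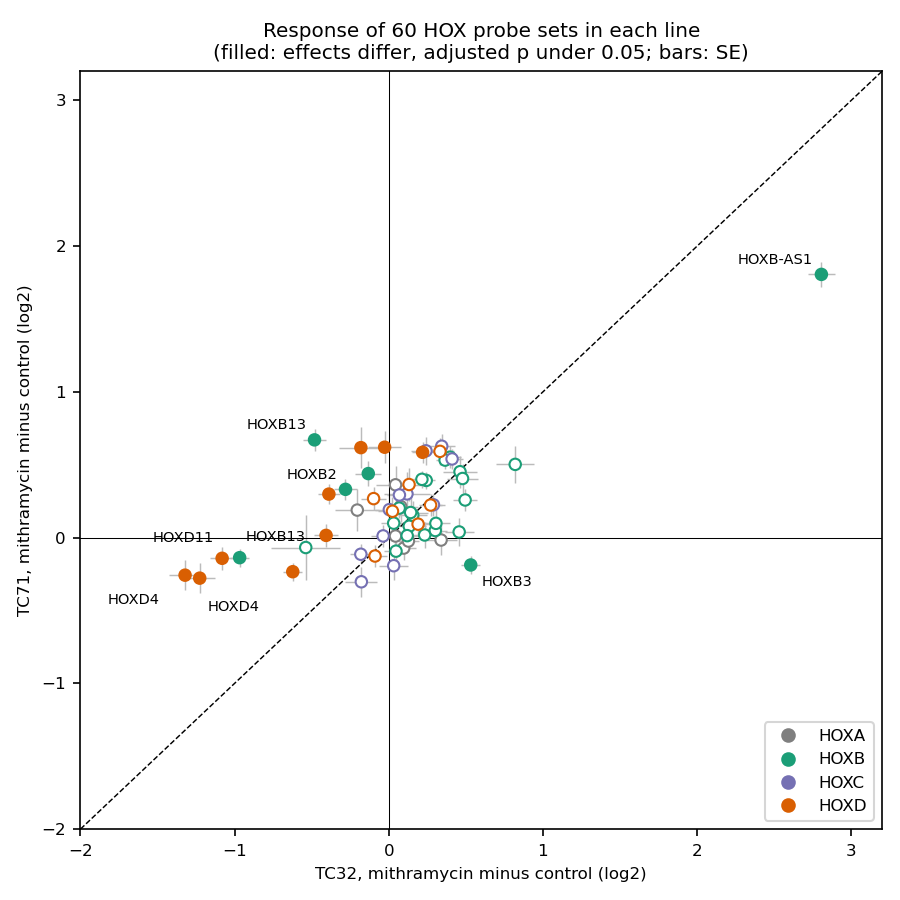
Log2 effect of mithramycin in TC71 against that in TC32 for each HOX probe set, coloured by cluster, with standard errors, filled where the effects differed at an adjusted p under 0.05. HOXD4 and HOXD11 lie left of 0 in TC32, at -1.32 to -1.08, with TC71 values between -0.28 and -0.14, and HOXB-AS1 lies at the upper right.

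The third question was which HOX transcripts differed between the untreated lines. In TC71 controls 11 of 60 sets were called higher and 25 lower than in TC32 controls, beside 20.7% and 21.9% of all sets, and 6 HOX sets were at least 1 apart, beside 10.3% of all sets. With the beta-actin covariate 8 HOX sets were called higher and 18 lower. At 1 set for each gene the counts were 9 and 17 of 36, beside 26.7% and 24.8%. The same control arrays entered the effects above, so the values are given side by side and no relation between them is read.

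Most coding sets of the HOXB cluster were lower in TC71. Of 19 coding sets 14 were called lower and 0 higher, beside 21.9% and 20.7% of all sets. Their median was -0.55 against -0.04 over all sets. Of all 26 HOXB sets, antisense included, 14 were called lower and 1 higher, at a median of -0.29. Under each of the 3 rescalings 13 or 14 of the 26 were lower and 1 higher. With the beta-actin covariate 12 were lower and 1 higher. HOXB8, a trunk gene that also acts in blood progenitors, read 5.61, 5.40 and 6.30 in the TC32 controls and 2.99, 3.27 and 3.60 in the TC71 controls at set 229667_s_at, a difference of -2.48 ± 0.22 (adjusted p = 6.61e-07). The TC71 controls lay under the medians of their arrays, which leaves the size of that difference rough, and no fold is given. With mithramycin it read 5.27, 5.54 and 4.87 in TC32 and 3.11, 3.36 and 3.19 in TC71, and neither effect was called (-0.54, adjusted p = 0.0768, and -0.07, adjusted p = 0.861). A second HOXB8 set, 221278_at, was dim, near 3, and differed by -0.23, which was not called.

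HOXB13 was lower in TC71, with differences of -1.79 ± 0.07 at 230105_at (3.47-fold, adjusted p = 3.22e-10) and -1.18 ± 0.06 at 209844_at (adjusted p = 3.65e-09). HOXB2 differed by -1.31 ± 0.07 (adjusted p = 5.05e-09) and HOXB3 at 228904_at by -1.04 ± 0.06 (adjusted p = 1.02e-08). For all 4 sets every TC71 control lay below every TC32 control. Here and above, the share of all sets whose arrays do not overlap was not counted, so nothing particular to these sets is read from it. HOXB9 at 226461_at differed by -0.89, the HOXB7 sets by -0.71 to -0.55 and the HOXB5 sets by -0.60 and -0.47. The HOXB5 call at 205600_x_at was lost with the beta-actin covariate. HOXB-AS1 went the other way at 237189_at, by 0.52 ± 0.09 (adjusted p = 0.000239), at levels near the array medians. The sets HOXB3 208414_s_at and HOXB-AS1 244512_at were not called between the controls. With mithramycin the HOXB13 gap at 230105_at was -0.64 and the HOXB2 gap -0.70, given without a test.

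In the HOXD cluster 4 of 16 sets were called higher in TC71 and 7 lower, beside 20.7% and 21.9% of all sets. With the beta-actin covariate the HOXD counts were 4 and 5. HOXD-AS2, a non-coding transcript of the HOXD cluster, read 6.0, 6.13 and 5.91 in the TC32 controls and 8.04, 7.80 and 7.96 in the TC71 controls, a difference of 1.92 ± 0.08 (3.79-fold, adjusted p = 3.98e-10). With mithramycin it read 6.23, 6.09 and 6.27 in TC32 and 8.05, 7.98 and 8.05 in TC71, and neither effect was called (0.19, adjusted p = 0.0887, and 0.09, adjusted p = 0.453). All 3 HOXD13 sets were higher in TC71, by 0.75, 0.51 and 0.80. All 3 HOXD10 sets were lower, with differences of -0.79, -0.73 and -0.67, as was HOXD11 (-0.59 ± 0.08, adjusted p = 2.41e-05). HOXD4 was lower at 1552337_s_at, with a difference of -0.93 ± 0.10 (adjusted p = 4.88e-06). At 205522_at the difference of -0.31 lost its call without TC32 control replicate 1 or 3 or without any of the 3 TC71 controls (values from -0.32 to -0.24). That call was also lost with housekeeping centring, hybridization control centring and the beta-actin covariate.

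**Figure D4:**
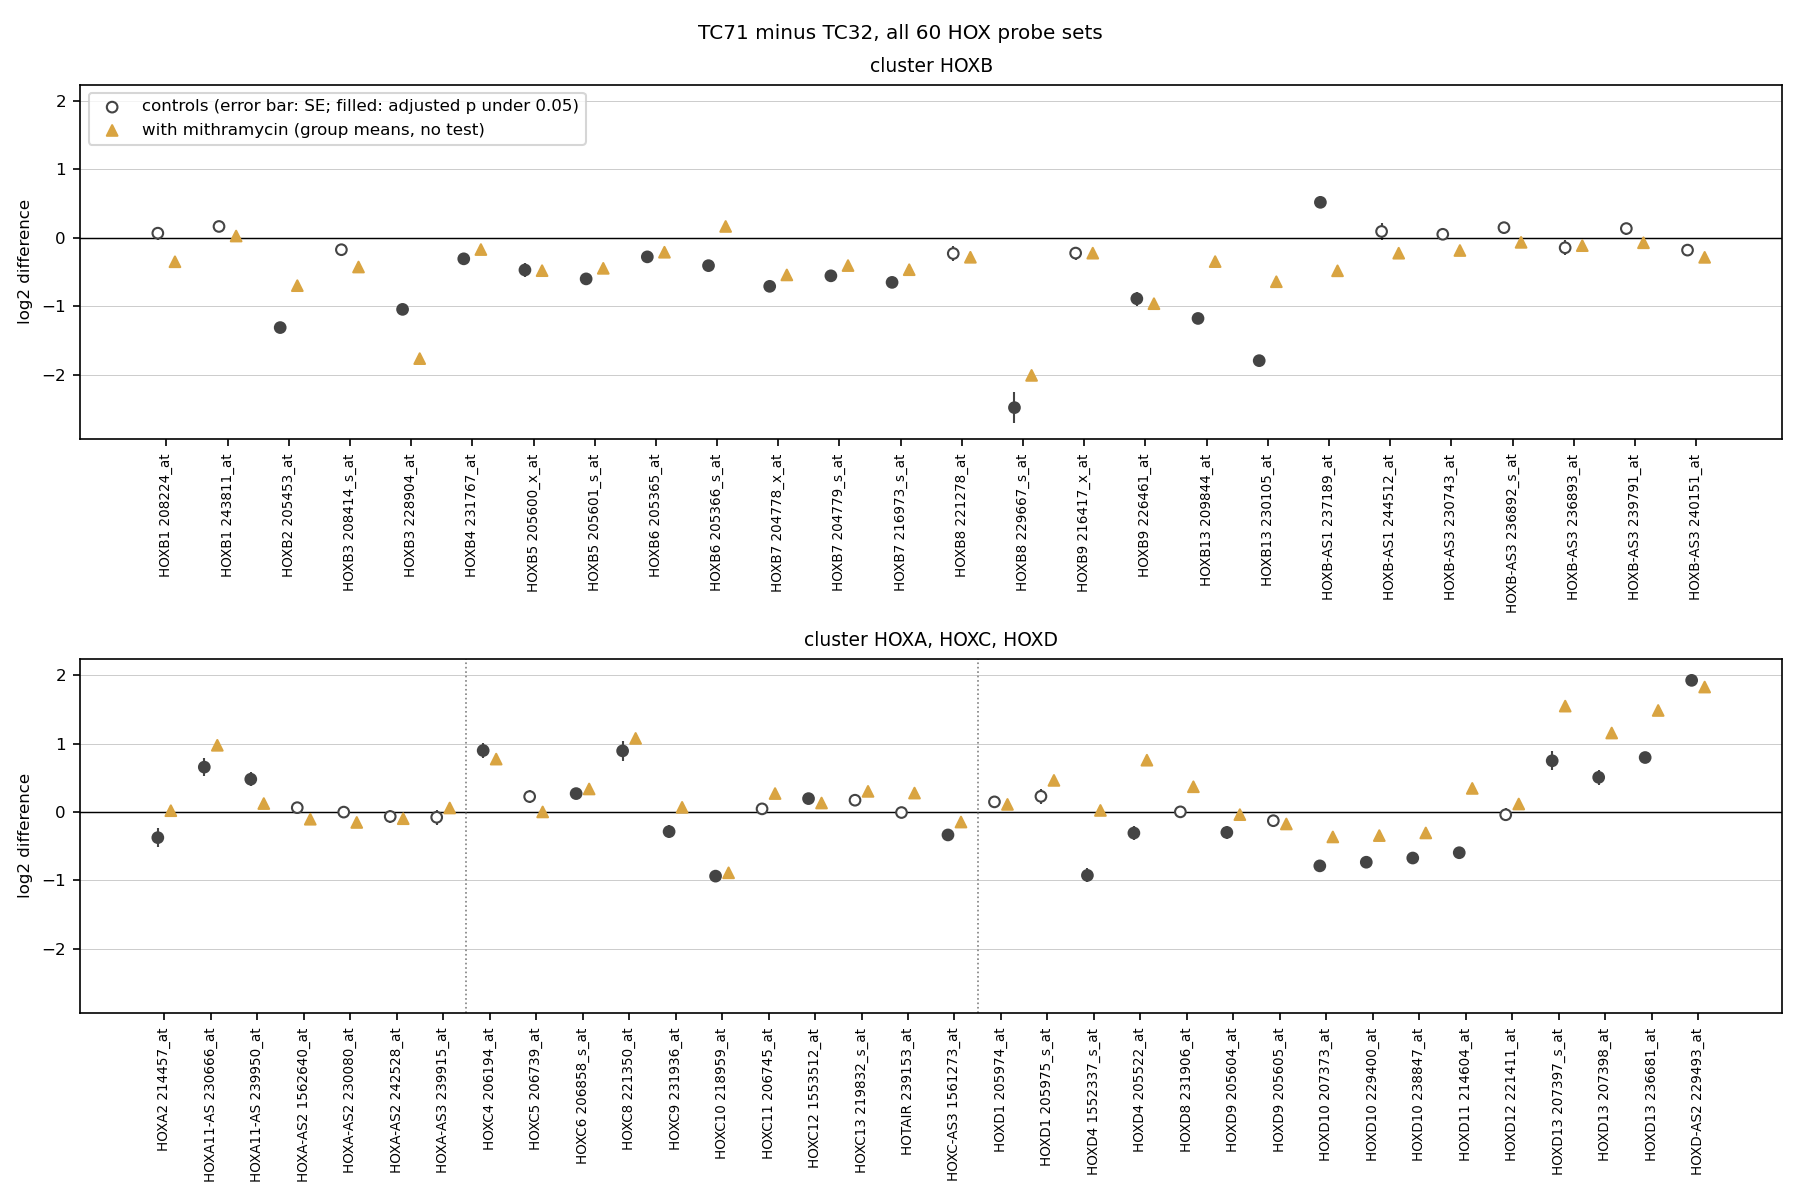
Log2 difference between TC71 and TC32 controls for each HOX probe set, by cluster and paralogue number, with standard errors from the fit, and beside it the same difference under mithramycin, without a test. HOXB control values lie mostly below 0, down to -2.48 at HOXB8, while HOXD-AS2 stands highest at 1.92.

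The HOXC cluster was mixed, with 4 of 11 sets higher and 3 lower, beside 20.7% and 21.9% of all sets. With the beta-actin covariate the HOXC counts were 1 and 1. HOXC4, HOXC6 and HOXC8, genes of the neck and trunk, were higher in TC71, by 0.90 (adjusted p = 8.32e-06), 0.27 (adjusted p = 0.00659) and 0.89 (adjusted p = 0.000217), whereas HOXC10, a gene of the hindlimb, was lower (-0.94, adjusted p = 2.48e-07). The HOXC6 call was lost with hybridization control centring and the calls of HOXC6 and HOXC8 with the beta-actin covariate. HOTAIR read 6.22, 6.18 and 6.15 in one line and 6.20, 6.16 and 6.17 in the other, a difference of -0.01 that was not called. In the HOXA cluster both HOXA11-AS sets were higher in TC71, by 0.66 (adjusted p = 0.000808) and 0.48 (adjusted p = 0.00142), at levels below or near the array medians.

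Genes that work with the HOX proteins or act on the clusters were read at 1 set each. Of 8 measured PBX, MEIS and PKNOX cofactor genes, 6 were called lower and 1 higher in TC32 and the same numbers in TC71, beside the shares of all genes given above, with medians of -0.38 and -0.39 against 0.08 and 0.07 over all genes. MEIS1 changed by -2.38 ± 0.10 in TC32 (adjusted p = 5.48e-09) and by -1.60 ± 0.10 in TC71 (adjusted p = 2.01e-07), from 9.27 to 6.89 and from 6.97 to 5.37. MEIS2 changed by -1.28 ± 0.09 and -1.09 ± 0.09, and PBX3 by -0.50 in TC32 and -1.38 ± 0.08 in TC71.

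The shares over all genes were 25.6% higher and 19.4% lower in TC32, and 19.4% and 16.1% in TC71. Of 11 Polycomb genes, 6 were called lower and 0 higher in TC32, and 4 lower and 1 higher in TC71, with medians of -0.27 and -0.17 against 0.08 and 0.07 over all genes. JARID2, a partner of the Polycomb complex that methylates histone H3, changed by -1.42 in TC32 and -1.93 in TC71 at its brightest set, while its weakest set differed by 0.02 and -0.14. Of 10 Trithorax genes and H3K27 demethylases, 6 were called lower and 3 higher in TC32, and 4 lower and 3 higher in TC71, with medians of -0.21 and -0.11. KDM6A, an H3K27 demethylase, changed by -1.83 in TC32 and -1.66 in TC71 at its brightest set and by -0.49 and -0.22 at the least changed of its 4. DOT1L, an H3K79 methyltransferase, changed by -1.40 and -1.27, although another DOT1L set differed by 0.13 in each line. Of 10 HOX activators and retinoic acid genes, 4 were called lower in TC32 and 2 in TC71, the latter near the share of all genes, with medians of 0.08 and -0.02. RXRA, a retinoid receptor, changed by -1.34 and -1.33 at its brightest set and by -0.15 and -0.24 at the other. Whether these changes bear on the HOX transcripts was not tested.

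Of 19 measured genes beside the HOX clusters, 8 were called higher and 5 lower in TC32, 5 higher and 1 lower in TC71, and between the controls 11 were higher in TC71 and 2 lower. The shares over all genes are 26.7% and 24.8% between the controls and, in TC32 and TC71, those given above. PRAC1, a gene near the HOXB13 end of the cluster, was 1.47 higher in the TC71 controls (adjusted p = 7.48e-11), opposite in sign to HOXB13. HAGLR and HAGLROS, antisense transcripts of the HOXD cluster whose symbols fall outside the HOX names, were higher in TC71 by 1.06 and 1.81 at their brightest sets. The other HAGLR sets differed by 0.69 (adjusted p = 0.000323) and 0.08, which was not called (adjusted p = 0.357).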

How the data were processed

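RNA of the 12 samples had been measured on one-colour oligonucleotide arrays. The deposited log2 values are 1 for each probe set and array, and RMA (background correction, quantile normalization and probe summary) is named in the submitters' processing notes, so a shift common to most genes is largely removed. The sources used here give no RMA version, genome build or detection calls. Of the probe sets, 41091 had 1 gene symbol, 1801 several and 11721 none here, and 62 control sets were left out. Symbols were updated through Entrez identifiers where a table for GRCh38.p14 allowed.

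A mean for each group was fitted on all sets with limma 3.58.1 in R 4.3.3 (lmFit, eBayes), with two-sided Benjamini-Hochberg adjusted p-values over all sets of a contrast, and again over 19775 genes at their brightest set. Values on every array are given for sets called and at least 1 apart in a contrast and for some other members of their genes or roles. For the other lists, members called and at least 1 apart in a mithramycin contrast at their brightest set are named. HOTAIR, HOXB5, HOXD10, HOXD13, PRAC1, HAGLR and HAGLROS were given in full or by value after their values were seen. The members and lists were chosen with earlier results of these data known. The fit was checked on simulated data, and each alternative is named in the closing section. No batch or scan date was used.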

Additional observations from a re-analysis of the deposited data

Results flagged for a closer look

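For 15 HOX probe sets the test of the TC71 effect minus the TC32 effect passed the threshold of 0.05, and these are the results marked for another look because the lines differed. The effect was higher in TC71 for HOXB13 by 1.15 (230105_at) and 0.83 (209844_at), and for HOXD4 by 1.06 (205522_at) and 0.95 (1552337_s_at). The same held for HOXD11 by 0.94, for HOXB2 by 0.61 and for HOXB6 by 0.57 (205366_s_at). It was also higher for HOXD13 by 0.80 (207397_s_at), 0.69 (236681_at) and 0.65 (207398_at), for HOXD10 by 0.42 (207373_at) and 0.39 (229400_at), and for HOXD8 by 0.37. The effect differed by -1.0 for HOXB-AS1 (237189_at) and by -0.72 for HOXB3 (228904_at).

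Of these, 11 kept their call whichever array was left out. The HOXD8 call (adjusted p = 0.0494) and the HOXD10 call at 207373_at (adjusted p = 0.0391) were lost without any array other than TC32 mithramycin replicate 1 and TC71 mithramycin replicate 2, with values from 0.30 to 0.39 and from 0.37 to 0.45. The HOXD13 call at 207397_s_at was lost without TC32 mithramycin replicate 1 or 3, TC32 control replicate 2, any TC71 mithramycin array or TC71 control replicate 1 (0.66 to 0.82). At 207398_at it was lost without TC71 mithramycin replicate 1 or 2 or TC71 control replicate 1 (0.56 to 0.63). The call of HOXD10 at 229400_at was lost with the beta-actin covariate and with housekeeping centring.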

How the results depend on the processing

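Of 109 called HOX values, 65 kept their call and sign under every alternative that tested them, 84 in all 12 leave-one-out fits, and 0 changed sign. With 20 sets called higher in TC32, hybridization control centring gave 5, a filter on means of at least 6 gave 11 and leaving out _x_at and _s_at sets gave 13. With 26 higher in TC71, leaving out those sets gave 17 and the beta-actin covariate 16. With 3 lower in TC71, hybridization control centring gave 0, a repeated quantile normalization 1, the filter 5, a trended robust variance 5 and the beta-actin covariate 1. The filter gave 6 in place of 11 sets higher in TC71 controls and 1 in place of 2 lower differences of effects, and the beta-actin covariate gave 8 in place of 13 higher ones. The filter and the probe set choice test fewer sets, and hybridization control centring shifts all sets of an array by the same amount. For the other changes the cause was not tested. Leaving out each array gave 18 to 21 higher and 9 to 10 lower in TC32, 20 to 27 and 1 to 4 in TC71, 10 to 14 and 20 to 25 between controls, and 9 to 13 and 2 to 3 for the difference of effects. The low of 1 came without TC71 mithramycin replicate 1 or 2 or TC71 control replicate 2 or 3.

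Deviations of same-numbered treated and control arrays correlated at 0.07, 0.21 and 0.03 in TC32 and at -0.09, -0.02 and -0.03 in TC71. Those of different-numbered arrays correlated between -0.17 and 0.11 in TC32 and between -0.04 and 0.07 in TC71. With 3 arrays a group these values cannot settle whether replicate numbers paired the samples. With the replicate block the counts were 19 higher and 9 lower in TC32, 25 and 3 in TC71, 12 and 26 between controls and 11 and 2 for the difference of effects. At 1 set for each gene the block gave 18, 20, 26 and 9 calls. Signal over background limits the dim HOXA sets, since no detection calls were used.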

Other observations

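HOTTIP, a non-coding transcript at the HOXA end whose symbol falls outside the HOX names, had 3 probe sets, and none was called in either line or between the controls, with adjusted p-values of limma's test between 0.111 and 0.787 in TC32. HAGLROS differed between the lines in its response to mithramycin, by 0.42 (adjusted p = 0.0161 over genes), with -0.18 in TC32 (adjusted p = 0.0473) and 0.24 in TC71 (adjusted p = 0.0164). Adjusted over all probe sets, the TC32 value of HAGLROS was not called (adjusted p = 0.0724).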
